A study of Mus musculus with 2 samples.

Results

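The small leucine-rich proteoglycans are secreted matrix proteins built from leucine-rich repeats, and most of them carry chains of chondroitin, dermatan or keratan sulfate. They bind collagen fibrils and set how these fibrils grow and pack, and several of them also hold growth factors such as TGF-beta in the matrix. Fibroblasts of skin, tendon and other connective tissues are a main source of decorin, biglycan, lumican and osteoglycin, while keratocan belongs to the cornea and epiphycan to cartilage. The 10 genes described here are Dcn, Bgn, Aspn, Lum, Fmod, Prelp, Kera, Omd, Epyc and Ogn, out of 18193 genes with a probe set. They were read from every probe set whose only platform gene symbol was 1 of these 10, which gave 21 of 45037 probe sets, and no probe set listed a member beside another gene.

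Mouse embryonic fibroblasts homozygous for Phc2 L307R were set against wild-type fibroblasts, with 1 Affymetrix array for each genotype. Both cultures were of the C57BL/6 strain, came from embryos at embryonic day 12.5 and were used at passage 1. L307R is a missense change in the SAM domain of Phc2, a subunit of Polycomb repressive complex 1, and the study asked how it alters silencing. The sources used here do not say how many embryos went into each culture. No genotype has a second array, hence no difference could be tested, and every difference below lies between these 2 cultures. In a culture, fewer cells of a type and less RNA per cell cannot be told apart.

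Signals are linear MAS5 values, and differences are log2 ratios of Phc2 L307R over wild type. The floor is the higher of the arrays' median signals, 94.8, and a probe set is called measured when it exceeds the floor on at least 1 array. Where only 1 signal exceeded it, the other was raised to the floor and the fold is written "at least". Each gene was represented by its main probe set, the one with the highest mean log2 signal. Of 18193 genes, 11408 were measured, with a median log2 ratio of 0.06. The SD of the log2 ratio between measured probe sets of 1 gene was 0.32, pooled over 5460 genes, and is the only error available. It covers the disagreement between probe sets and not the spread between cultures. The labelled cell type was checked by its markers. All 10 fibroblast markers were measured on both arrays, with a summed signal of 174365 in Phc2 L307R and 136180 in wild type. This check does not exclude other cell types. Skeletal muscle markers were measured on both arrays as well, with a summed signal of 17749.1 in Phc2 L307R and 16221.3 in wild type. The arrays had medians of 94.3 in Phc2 L307R and 94.8 in wild type and a Spearman correlation of 0.955 over 45037 probe sets.

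Promoter sequence is shown first for 4 members. Aspn, Omd and Ogn lie side by side on chromosome 13 and differed unequally between the arrays, and Bgn had the most CG dinucleotides of the windows found. Unmethylated CG-rich promoters are the usual places where Polycomb complexes bind in mammals. Each sequence is the RefSeq window of build GRCm38.p6, from 250 bases before to 50 bases after the annotated start, plus strand, 5′ to 3′, with every CG in capitals. The windows are chr13:49544193-49544492 for Aspn, chr13:49582212-49582511 for Omd, chr13:49607765-49608064 for Ogn and chrX:73483351-73483650 for Bgn.
Aspn: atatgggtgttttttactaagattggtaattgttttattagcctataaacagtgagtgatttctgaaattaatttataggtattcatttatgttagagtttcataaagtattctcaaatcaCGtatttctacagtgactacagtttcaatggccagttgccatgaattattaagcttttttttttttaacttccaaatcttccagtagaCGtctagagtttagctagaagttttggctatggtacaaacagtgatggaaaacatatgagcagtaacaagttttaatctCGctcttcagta
Omd: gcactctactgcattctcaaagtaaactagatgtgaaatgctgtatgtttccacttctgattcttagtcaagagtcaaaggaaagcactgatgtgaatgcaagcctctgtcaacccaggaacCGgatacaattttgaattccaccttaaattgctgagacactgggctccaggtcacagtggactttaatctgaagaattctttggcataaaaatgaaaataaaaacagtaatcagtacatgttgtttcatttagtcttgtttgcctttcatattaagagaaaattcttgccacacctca
Ogn: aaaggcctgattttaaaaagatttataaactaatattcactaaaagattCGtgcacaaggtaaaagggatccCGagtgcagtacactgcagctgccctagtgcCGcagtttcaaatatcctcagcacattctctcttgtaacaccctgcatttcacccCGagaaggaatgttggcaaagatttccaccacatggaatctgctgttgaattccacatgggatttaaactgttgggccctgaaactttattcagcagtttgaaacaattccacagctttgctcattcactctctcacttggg
Bgn: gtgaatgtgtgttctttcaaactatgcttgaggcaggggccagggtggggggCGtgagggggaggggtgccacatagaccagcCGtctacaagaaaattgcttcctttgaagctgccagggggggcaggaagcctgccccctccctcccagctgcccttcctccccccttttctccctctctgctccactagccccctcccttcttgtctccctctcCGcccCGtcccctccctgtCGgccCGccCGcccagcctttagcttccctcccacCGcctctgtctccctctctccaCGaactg

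RefSeq windows were found for 8 of the 10 members, 9 windows in all, with 2 of Epyc. Dcn and Lum had none, so nothing below covers their promoters. Of CG dinucleotides there were 9 in Bgn, 7 in Prelp, 4 in Ogn, 3 each in Aspn and Fmod, 2 and 1 in the Epyc windows and 1 each in Kera and Omd, against a median of 7 over all 32851 windows. Of all windows, 56.5% held at most 9 and 14.1% at most 1. The motifs below were searched on both strands. TATAAA, the TATA box, occurred in the windows of Aspn and Ogn and in 13.6% of all windows. GGAATG, the core of TEAD sites, occurred in those of Ogn and Epyc and in 14.7% of all. TGACTCA, the AP-1 site, was in no member window and in 5.2% of all, and CAGGTG, an E-box of the kind bound by Snail and ZEB factors, in none and in 20.2%. These are matches of letters only.

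As a family, the proteoglycan genes were mostly higher in Phc2 L307R at their main probe sets, and Lum, Dcn and Epyc differed most. Of the 10 genes, 9 were measured, all above the floor on both arrays at the main probe set, and Kera lay below it on both. The measured genes counted 8 higher and 1 lower, where 59.1% of all measured genes were higher and 40.9% lower. At least 1.5-fold higher at the main probe set were 3 of the 9 (Lum, Dcn and Epyc), where 4.19% of all measured genes were. None was 1.5-fold lower there, where 3.25% of all measured genes were. At main probe sets only Lum reached 2-fold, where 0.579% of all measured genes were at least 2-fold higher. No member was 2-fold lower at its main probe set, where 0.535% of all were. The median log2 ratio over the 9 genes was 0.26, and over all measured genes 0.06. On ratios centred on the latter, the family's median was 0.19 and 7 genes were higher, since Prelp turned to -0.01. At the level of single probe sets, 19 of the 21 were measured, 15 higher and 4 lower, where 54.2% of all measured probe sets were higher and 45.8% lower. Among the lower ones, 1448421_s_at of Aspn was at -0.74 and 1438966_x_at of Fmod was at least 2.61-fold lower. With the mean over probe sets, 6 of the 9 genes were higher, where 56.4% of all measured genes were.

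**Figure D1:**
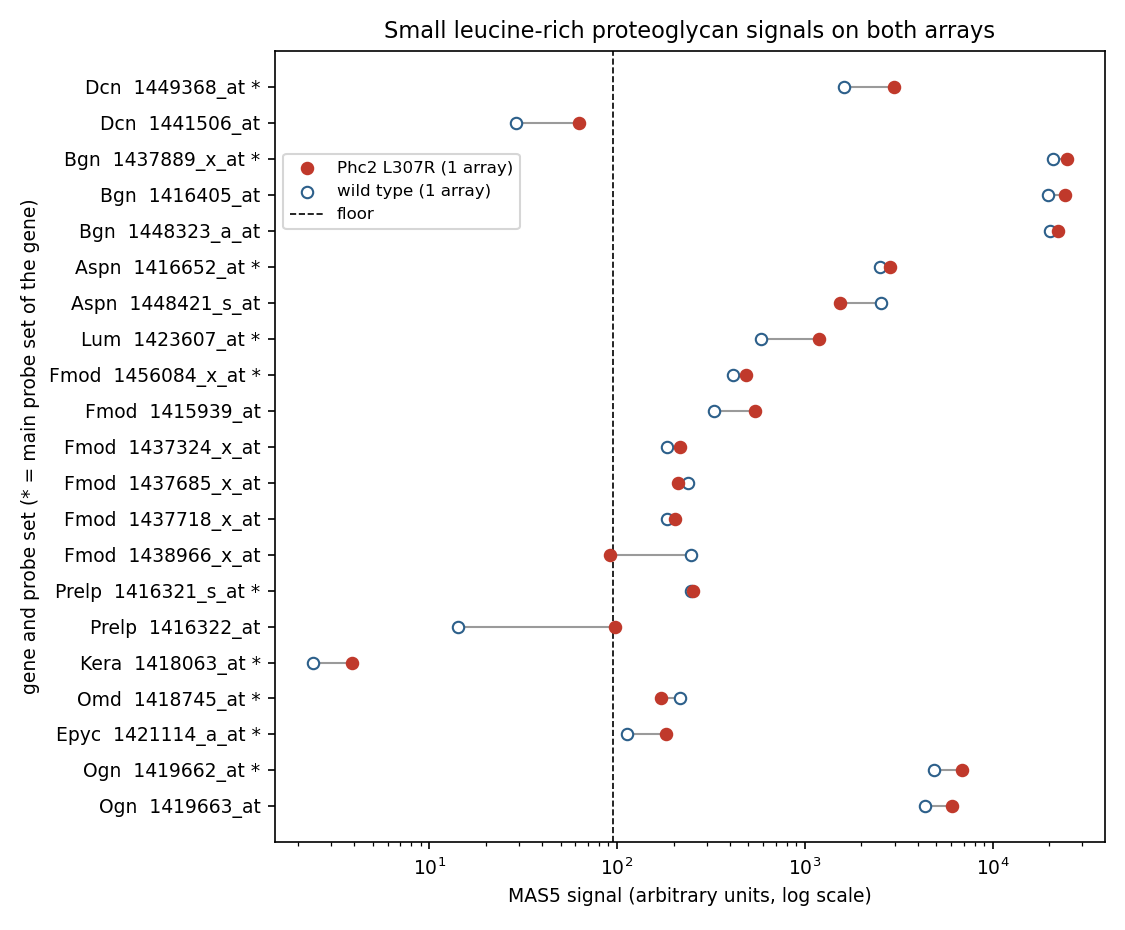
Signal of each of the 21 probe sets in Phc2 L307R (filled) and wild type (open), 1 array each, on a log axis; the dashed line is the floor at 94.8 and an asterisk marks the main probe set of a gene. Filled points lie to the right of open ones for most probe sets, and to the left for Omd, 1 probe set of Aspn and 2 of Fmod.

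Decorin, biglycan and asporin form a class of closely related core proteins, and of these Dcn differed most. Dcn encodes the proteoglycan that coats collagen fibrils and binds TGF-beta. At probe set 1449368_at its signal was 2972.2 in Phc2 L307R and 1619.4 in wild type, 1.84-fold higher, a log2 ratio of 0.88. That is 2.70 times the SD between probe sets of a gene, and 0.973% of measured genes had a higher ratio. Its second probe set, 1441506_at, lay below the floor on both arrays, at 62.5 in Phc2 L307R and 28.8 in wild type, so the value rests on 1 probe set.

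Bgn encodes biglycan, a close relative of decorin that also signals through Toll-like receptors when it is released from the matrix. It was measured by 3 probe sets, and all were slightly higher in Phc2 L307R. The signals were 24864.8 in Phc2 L307R and 20810.3 in wild type at 1437889_x_at, a log2 ratio of 0.26. At 1416405_at they were 24187.9 in Phc2 L307R and 19659.2 in wild type, a log2 ratio of 0.30. At 1448323_a_at they were 22288.1 in Phc2 L307R and 20172.5 in wild type, a log2 ratio of 0.14. The 3 values lay within 0.16 of each other and within the SD between probe sets, so the difference is small and even across probe sets. Very bright genes as a group were shifted the same way. Of 258 genes with signals above 10000 on both arrays, Bgn among them, 209 had a higher signal in Phc2 L307R, and their median log2 ratio was 0.18. After quantile normalization their median was 0.03 and the log2 ratio of Bgn was 0.03.

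Aspn encodes asporin, which has a stretch of aspartate in place of an attached sugar chain and binds collagen and TGF-beta. Its probe sets disagreed. At 1416652_at the signal was 2855.1 in Phc2 L307R and 2505.6 in wild type, a log2 ratio of 0.19. At 1448421_s_at it was 1531.7 in Phc2 L307R and 2551.0 in wild type, a log2 ratio of -0.74. Averaged, these give -0.27, so the direction for Aspn depends on the probe set. Of the 5460 genes with at least 2 measured probe sets, 54.5% had probe sets in both directions, and 7.97% had a range as wide as the 0.92 of Aspn.

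Lum, Fmod, Prelp, Omd and Kera form the class most of whose members can carry keratan sulfate, and their log2 ratios ranged widely. Lum encodes lumican, which limits the thickness of collagen fibrils in skin, tendon and cornea. At its single probe set, 1423607_at, the signal was 1194.0 in Phc2 L307R and 585.4 in wild type, 2.04-fold higher, a log2 ratio of 1.03. This is 3.16 times the SD between probe sets, and 0.482% of measured genes had a higher ratio. Centred ratios gave 0.97 and loess gave 1.00, both under 2-fold.

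Fmod encodes fibromodulin, which shares a binding site on collagen with lumican and takes part in fibril assembly in tendon. It had 6 measured probe sets, 4 higher and 2 lower, with log2 ratios between -1.39 and 0.73. The main one, 1456084_x_at, gave a signal of 488.5 in Phc2 L307R and 416.5 in wild type, a log2 ratio of 0.23. At 1415939_at, the only Fmod probe set without the suffix _x_at and with an accession listed, the signal was 542.2 in Phc2 L307R and 326.3 in wild type, a log2 ratio of 0.73. The suffix _x_at marks probes that can also bind other transcripts. At 1438966_x_at the signal was 91.6 in Phc2 L307R and 247.6 in wild type, at least 2.61-fold lower. Probe sets 1437324_x_at and 1437718_x_at gave log2 ratios of 0.23 and 0.14, and 1437685_x_at gave -0.18. The SD over the 6 probe sets was 0.72, wider than the pooled SD of 0.32, so no single value holds for Fmod.

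Prelp encodes a proteoglycan with an arginine- and proline-rich end that links basement membranes to connective tissue. Probe set 1416321_s_at gave a signal of 255.1 in Phc2 L307R and 246.2 in wild type, a log2 ratio of 0.05, below the median of all measured genes. Its second probe set, 1416322_at, crossed the floor only in Phc2 L307R, at 97.5, against 14.3 in wild type. It gave a bound of at least 1.03-fold higher, which says little about the size of the difference.

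Omd encodes osteomodulin, or osteoadherin, a proteoglycan of mineralising bone and of tooth. It was the 1 measured member whose main probe set was lower, with a signal of 172.4 in Phc2 L307R and 216.4 in wild type at 1418745_at. The log2 ratio was -0.33, about the SD between probe sets, and 10.8% of measured genes had a lower ratio. Kera encodes keratocan, which is needed for the shape of the cornea. At 1418063_at its signal was 3.9 in Phc2 L307R and 2.4 in wild type, both far below the floor, and no fold is given. Of 5 genes listed as markers of the cornea, 3 (Aldh3a1, Krt12 and Aldh1a1) also lay below the floor on both arrays. The other 2, Cd34 and Ptgds, had log2 ratios of -0.49 and at most -0.12.

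Epyc and Ogn belong to the class with shorter repeat domains, and both were higher. Epyc encodes epiphycan, a dermatan sulfate proteoglycan of growth plate cartilage. Its single probe set, 1421114_a_at, gave a signal of 181.3 in Phc2 L307R and 112.7 in wild type, 1.61-fold higher, a log2 ratio of 0.69. Both signals were close to the floor of 94.8. A floor set at the 60th percentile gave a log2 ratio of 0.04. Genes above the floor on both arrays were also split into terciles by signal. The SD of the log2 ratio over genes was 0.38 in the dimmest tercile, which holds Epyc, Fmod, Omd and Prelp. It was 0.31 in the middle tercile, which holds Lum, and 0.28 in the brightest, which holds Aspn, Bgn, Dcn and Ogn.

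Ogn encodes osteoglycin, or mimecan, which takes part in collagen fibrillogenesis. Its 2 probe sets agreed within 0.01 on the log2 scale. At 1419662_at the signal was 6844.3 in Phc2 L307R and 4880.7 in wild type, a log2 ratio of 0.49. At 1419663_at it was 6053.1 in Phc2 L307R and 4347.7 in wild type, a log2 ratio of 0.48. The 1.40-fold difference is 1.5 times the SD between probe sets, and 7.18% of measured genes had a higher ratio.

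**Figure D2:**
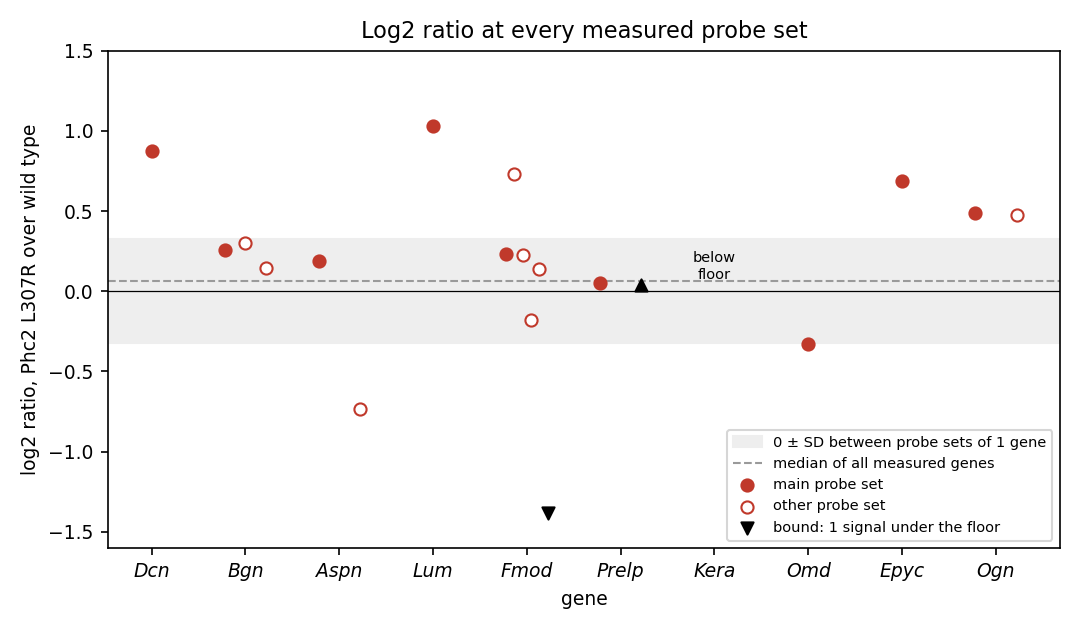
Log2 ratio of Phc2 L307R over wild type at each measured probe set (filled, main probe set; open, other probe sets; triangles, bounds), with the grey band showing 0 ± 0.32, the SD between probe sets of 1 gene. Dcn, Lum, Epyc and Ogn lie above the band, while the probe sets of Fmod run from -1.39 to 0.73 and those of Aspn lie on both sides of 0.

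**Figure D3:**
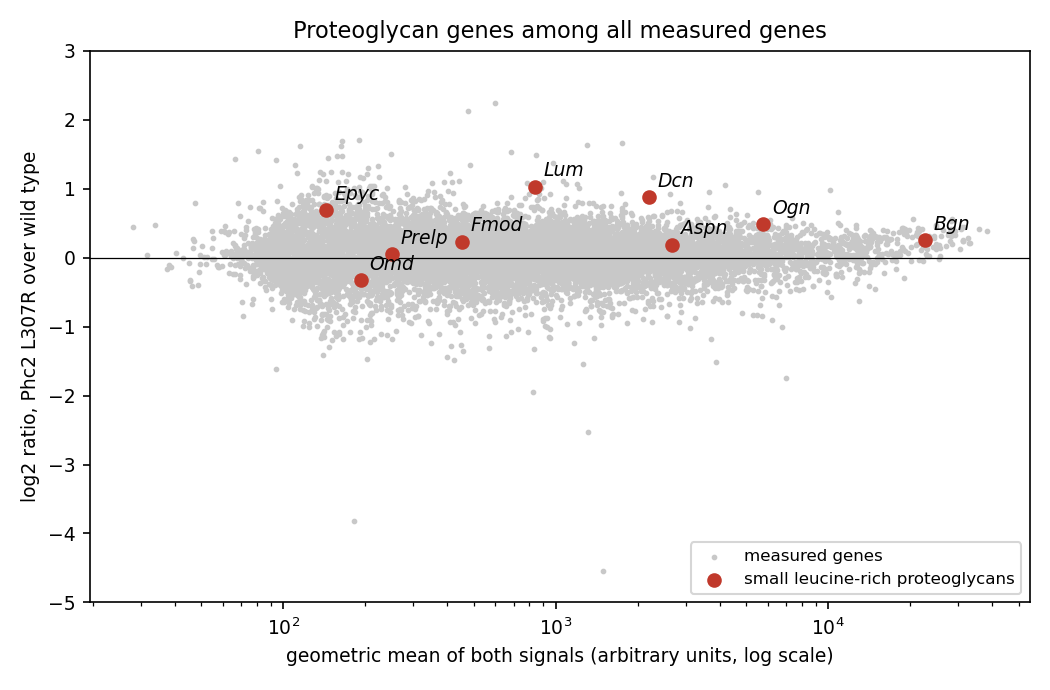
Log2 ratio of Phc2 L307R over wild type against the geometric mean of both signals (log axis) for the 11408 measured genes (grey) and the 9 measured proteoglycan genes (red). Lum and Dcn lie near the upper edge of genes of like signal, while Prelp, Fmod, Aspn and Omd lie within the bulk.

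Lum, Dcn and Epyc, the members furthest above 0 at their main probe sets, belong to 1 cluster. Along chromosome 10 the order of genes is Dcn, Lum, Kera and Epyc, with no other protein-coding gene between them in RefSeq's GRCm38.p6. The 3 of these that were measured had the 3 highest log2 ratios of the family, 0.88, 1.03 and 0.69. The place of Epyc among them was lost under 3 alternatives. It was at 0.04 with the floor raised to percentile 60 and at 0.41 with the floor as a pseudocount, under the 0.48 of Ogn. Without _x_at and _s_at probe sets Fmod, at 0.73, exceeded it. The nearest measured genes outside the cluster did not share the difference. On 1 side, Btg1, a regulator of proliferation, was at -0.20 and the endosome protein Eea1 at -0.47. On the other side, the calcium pump Atp2b1 was at 0.06 and the centriole protein Poc1b at -0.37. Ccer1, next to Epyc, lay below the floor on both arrays.

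On chromosome 13 the proteoglycan genes Aspn, Omd and Ogn adjoin Ecm2, whose product has related repeats. Aspn was at 0.19 at its main probe set, Omd at -0.33 and Ogn at 0.49, so adjacent members differed in direction. Ecm2 lay below the floor on both arrays, at 28.7 in Phc2 L307R and 38.5 in wild type. The 4 measured genes around them were all lower. Cenpp, a centromere protein whose annotated span overlaps the cluster, was at -0.95, the isoleucine tRNA ligase gene Iars at -0.30, Nol8 at -0.14 and Ippk at -0.07. Prelp and Fmod follow each other on chromosome 1, next to Optc, the opticin gene, which lay below the floor. Their neighbour Btg2, a target of p53, was higher at 0.62. Beside Bgn on chromosome X, Haus7, a subunit of the augmin complex of the spindle, was at 0.76 and the phosphatase gene Dusp9 at -0.24.

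**Figure D4:**
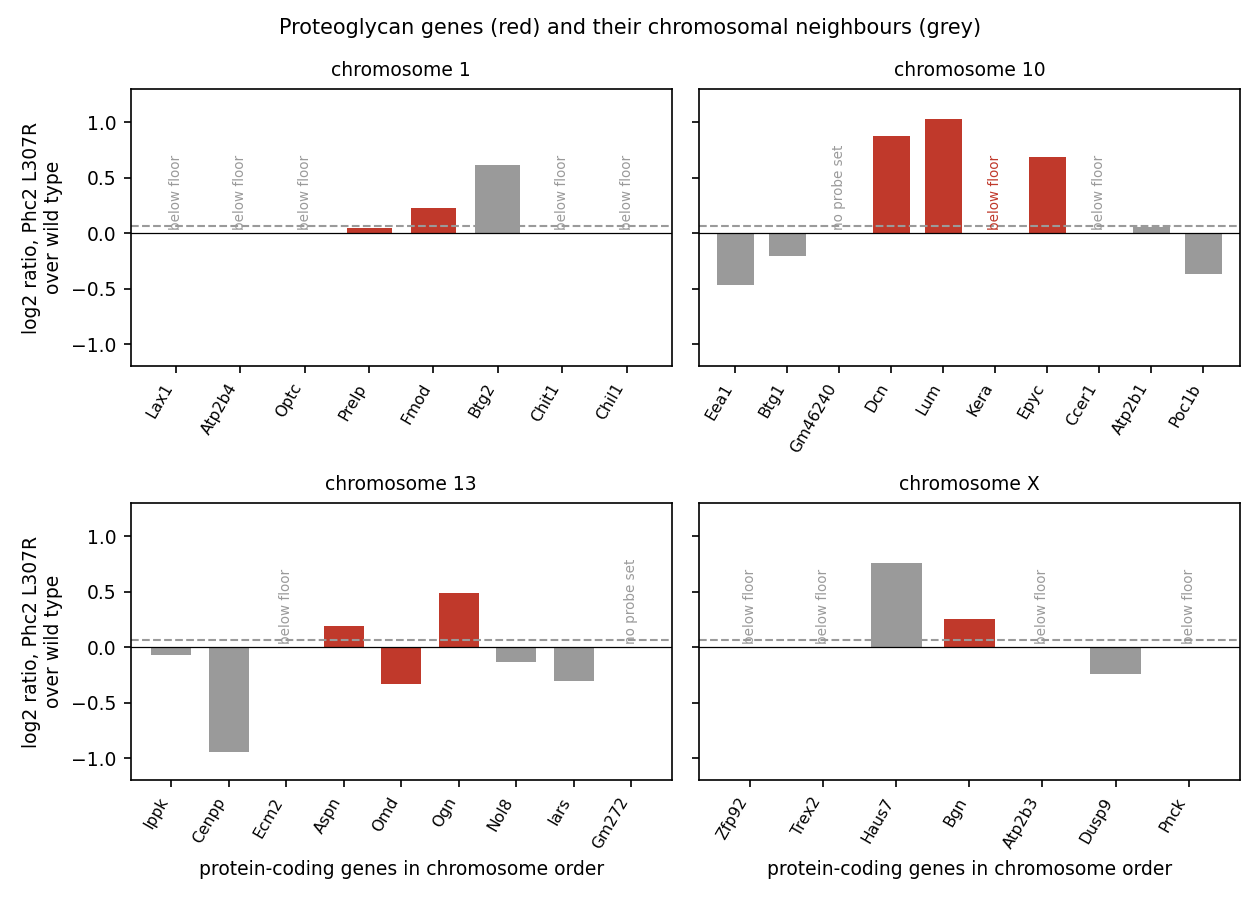
Log2 ratio of Phc2 L307R over wild type at the main probe set for the proteoglycan genes (red) and the 3 protein-coding genes on each side (grey), in chromosome order; genes under the floor on both arrays or without a probe set are written out, and the dashed line is the median of all measured genes, 0.06. On chromosome 10, Dcn, Lum and Epyc stand above neighbours between -0.47 and 0.06.

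Further members of the wider family had little signal. Of 8 other small leucine-rich proteoglycan genes, 6 had a probe set and only Podn, which encodes podocan, was measured. Its signal was 381.2 in Phc2 L307R and 261.4 in wild type, a log2 ratio of 0.54. Optc, Chad, Chadl, Nyx and Ecm2 lay below the floor on both arrays.

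Enzymes that build the sugar chains did not follow the core proteins as lists. The chain starts with a linker of sugars on a serine of the core protein. Of the 6 measured linker genes, 3 were higher and 3 lower, with a median log2 ratio of -0.07. B3galt6, the galactosyltransferase of the linker, was at 0.61, B3gat3 at 0.23, Xylt2 at -0.23 and the xylose phosphatase gene Pxylp1 at -0.52, with its second probe set at -0.08. Among 14 measured genes of chondroitin and dermatan sulfate synthesis, 9 were higher and 5 lower, close to the 59.1% of all measured genes that were higher, with a median of 0.12. None was at least 1.5-fold higher, where 4.19% of all measured genes were, and 3 were at least 1.5-fold lower, where 3.25% of all were.

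The lower chain enzymes included an epimerase that makes dermatan sulfate. Dse, an epimerase that turns chondroitin into dermatan sulfate, gave a signal of 767.5 in Phc2 L307R and 1396.7 in wild type, a log2 ratio of -0.86. The related epimerase gene Dsel, named after its value was seen, was higher, with 1182.1 in Phc2 L307R and 995.2 in wild type, a log2 ratio of 0.25. Csgalnact2, which adds the first sugar of a chondroitin chain, had 738.7 in Phc2 L307R and 1191.3 in wild type, a log2 ratio of -0.69. The chondroitin synthase gene Chsy3 had 84.5 in Phc2 L307R, under the floor, and 182.5 in wild type, at least 1.93-fold lower. Being above the floor only in wild type, Chsy3 could only be counted as lower. Chst14, the sulfotransferase that acts on dermatan sulfate after Dse, was at 0.49 in the other direction. All these genes rest on 1 measured probe set each.

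Keratan sulfate enzymes and the tyrosine sulfotransferases modify fibromodulin and its relatives. The keratan sulfate list had a median close to that of all genes, and the tyrosine sulfotransferases went in both directions. Of 8 measured keratan sulfate genes, 6 were higher, where 59.1% of all measured genes were. Their median log2 ratio was 0.03, and the outermost were B4galt4 at -0.44 and B4galt1 at 0.34. St3gal3 was at 0.17 and B3gnt7 at 0.08. Tpst1 was at 0.38 and Tpst2 at -0.11.

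The collagens to which these proteoglycans bind were higher almost throughout at their main probe sets. All 14 were measured and 13 were higher, where 59.1% of all measured genes were. Their median log2 ratio was 0.48. Col11a2, a fibrillar collagen of cartilage, gave a signal of 321.3 in Phc2 L307R and 129.9 in wild type, a log2 ratio of 1.31. Col14a1, which sits on the fibril surface as decorin does, was at 0.60, with its second probe set at 0.10. Col3a1 was at 0.56 and Col5a1 at 0.51. The exception was Col12a1 at -0.33, named after its value was seen, and its second probe set gave 0.34. Second probe sets of Col5a2 and Col11a1, both counted as higher and also named after their values were seen, gave -0.55 and -0.53. The list includes some of the brightest genes of the array, and its median was 0.43 after quantile normalization. Genes that crosslink collagen were also higher in 6 of 7, with a median of 0.31, or 0.20 with loess. Loxl4 was at 0.55, Loxl3 at 0.50, the lysyl hydroxylase gene Plod3 at 0.47 and Lox at 0.31. A second probe set of Loxl4 gave 0.10, and 2 others of Lox gave -0.01 and 0.34.

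Several growth factors are held by these proteoglycans in the matrix. Of their 9 genes 8 were measured, 6 of them higher, where 59.1% of all measured genes were. Their median log2 ratio was 0.23. Pdgfb, named after its value was seen, exceeded the floor only in Phc2 L307R and could only be counted as higher. Tgfb1 and Bmp4 were both at 0.43 and Tgfb3 at 0.29. Bmp2, a bone-inducing factor, was the 1 gene past 2-fold, with a signal of 105.6 in Phc2 L307R and 232.0 in wild type, a log2 ratio of -1.14. Of 9 measured receptor genes 6 were higher, close to the 59.1% of all measured genes, with a median of 0.08. P2rx7 exceeded the floor only in Phc2 L307R, so it could only be counted as higher. The largest ratios were 0.45 for the endocytic receptor gene Lrp1, whose second probe set gave -0.36, at least 0.30 for P2rx7, -0.21 for Met and -0.21 for Itgb1. A second probe set of Met gave 0.12, and the other 3 of Itgb1 lay between -0.17 and 0.29.

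Of 9 measured genes listed as proteases that trim or degrade the proteoglycans, 6 were higher, close to the 59.1% of all measured genes. Their median was 0.28. Mmp13, a collagenase that also cuts fibromodulin, gave a signal of 581.1 in Phc2 L307R and 302.7 in wild type, a log2 ratio of 0.94. Tll1, a tolloid protease of the family that removes the propeptide of biglycan, had 1113.1 in Phc2 L307R and 1921.8 in wild type, a log2 ratio of -0.79. Pcolce and Pcolce2 are enhancers of procollagen processing and not proteases, but were counted in the list and among its higher genes. Pcolce, named after its value was seen, was at 0.01, with its second probe set at 0.49, and Pcolce2 was at 0.36. Adamts4 was also at 0.36, with a second probe set at -0.15.

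**Figure D5:**
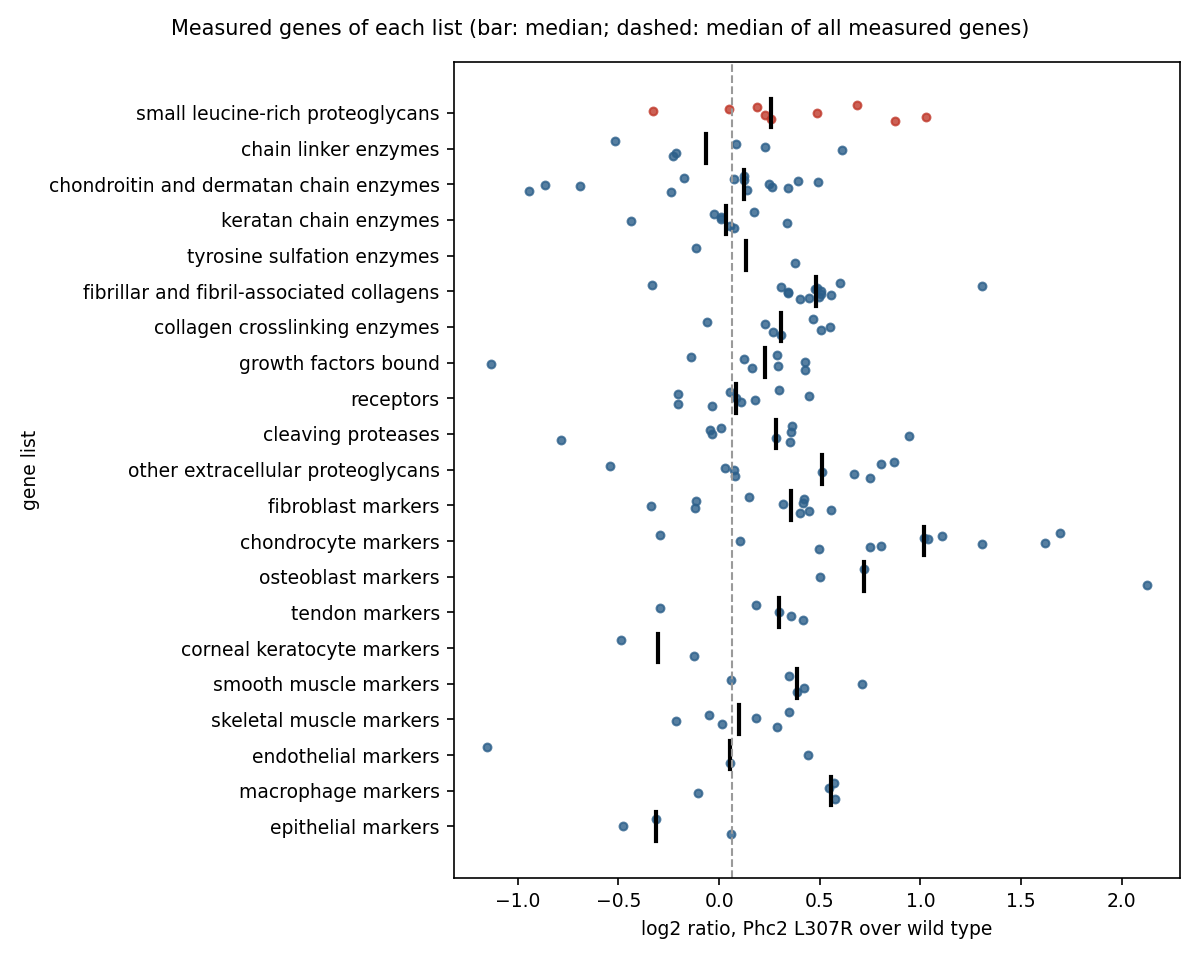
Log2 ratio of Phc2 L307R over wild type for each measured gene of the proteoglycan list (red) and of the other lists (blue), with a black bar at each list's median and a dashed line at the median of all measured genes, 0.06. The medians of the fibrillar collagens (0.48) and the chondrocyte markers (1.02) lie to the right of the proteoglycan median (0.26). Those of the chain enzyme lists lie near the dashed line.

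Markers of skeletal cells were higher on the same array. All 11 chondrocyte markers were measured and 10 were higher, 6 of them at least 2-fold, where 59.1% of all measured genes were higher and 0.579% at least 2-fold higher. Their median log2 ratio was 1.02, with a summed signal of 9682.1 in Phc2 L307R and 6243.1 in wild type. The median was 0.74 with the floor at percentile 60 and 0.69 with the floor as a pseudocount. In wild type, Cnmd at 87.5 and Matn1 at 90.4 lay under the floor of 94.8, and Snorc at 97.9 was close to it. Cnmd and Matn1 exceeded the floor only in Phc2 L307R, so they could only be counted as higher. Cnmd was at least 3.23-fold higher, Matn1 at least 3.07-fold, Col11a2 2.47-fold and Snorc 2.16-fold, while Sox9, the transcription factor that defines cartilage and was named after its value was seen, was at -0.29. Of 8 osteoblast markers 5 had a probe set and 3 were measured, all higher: Ibsp at 2.12, Alpl at 0.72 and Sp7 at 0.50 or more. Sp7 exceeded the floor only in Phc2 L307R and could likewise only be counted as higher. Their list had a summed signal of 1355.5 in Phc2 L307R and 494.1 in wild type, and Dmp1 and Phex lay below the floor on both arrays. Epyc and Omd are genes of cartilage and bone, and their log2 ratios of 0.69 and -0.33 stand beside these values. Tendon markers, of a tissue rich in Fmod, Dcn and Lum, were higher in 4 of 5, with a median of 0.30 and a summed signal of 11665.2 in Phc2 L307R and 9833.7 in wild type. Scx was at 0.42, Tnmd at 0.36, Mkx at 0.30 and Thbs4 at -0.29. The fibroblast markers had a median of 0.36, with 7 of 10 higher, and 0.13 after quantile normalization. Col3a1, Col1a2, Fn1 and Vim were at 0.56, 0.45, 0.42 and 0.42, but a second probe set of Fn1 gave -0.33 and 2 others of Vim gave -0.22 and -0.02. Pdgfrb at -0.34, Pdgfra at -0.12 and S100a4 at -0.12 were the lower markers, named after their values were seen. A second probe set of Pdgfrb gave 0.33, and 2 others of Pdgfra gave 0.17 and 0.77, so the direction of both depends on the probe set. The fibroblast, chondrocyte and collagen lists share genes, 5 of the 14 collagens standing in a marker list as well. The part of cell type makeup in the proteoglycan values was not tested.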

How the data were processed

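Total RNA of 2 cultures was labelled as biotin cRNA and hybridised to 1 array per genotype, per the labels' protocols. The authors deposited intensity values on a linear scale for 45101 probe sets. Signals were made with MAS5 and Affymetrix Expression Console, per the submitters' processing notes, which give no versions. The sources used here do not describe the scaling, but the deposited values have a mean of 500.003 on each array after trimming 2% at each end. The 64 control probe sets were left out. Of the other 45037, 34945 carried 1 gene symbol, 932 several and 9160 none listed. Of the 34945, 34741 matched a RefSeq gene table of GRCm38.p6, which served for current symbols and gene order only.

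Log2 ratios, the floor, the main probe set and the counts were computed in Python 3.11.15 with pandas 2.3.3. The gene log2 ratios were tested on simulated arrays. The simulated differences were of 2-fold or more and lay in genes well above the floor, so the test does not cover dimmer genes or smaller differences. Folds of 1.5 and 2 were used. No p-value was computed, since the design has 1 array per genotype. The number of arrays limits the precision, and no detection calls were used. The 10 members, the 11 pathway lists and the 10 marker lists were chosen with earlier results of these data known. Named genes are all members, up to 4 measured genes of largest absolute log2 ratio per list, and the 3 protein-coding genes on each side of each cluster. Other names were taken with their values in view. As alternatives, 9 settings were run: quantile normalization, loess (span 0.4, 3 iterations), centring, no floor, a floor at percentile 40 or 60, the floor as a pseudocount, the mean over probe sets, and leaving out _x_at and _s_at probe sets.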

Additional observations from a re-analysis of the deposited data

How the results depend on the processing

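Every value rests on 1 array per genotype, so stability over settings says nothing about other cultures. The median log2 ratio of the 9 measured proteoglycan genes was 0.26 as reported and 0.19 to 0.49 under the 9 alternatives. It was highest without _x_at and _s_at probe sets, which moved Fmod to 0.73. The number of higher genes was 8 as reported, 7 with centring and 6 with the mean over probe sets, which turned Fmod to -0.04 and Aspn to -0.27. The number at least 1.5-fold higher was 3 as reported. A floor at percentile 60, or used as a pseudocount, gave 2, and leaving out _x_at and _s_at probe sets gave 4. The number at least 2-fold higher, 1 as reported, was 0 with loess, with centring and with the pseudocount, since Lum lies just past 2-fold. Over all settings, Lum lay between 0.92 and 1.03, Dcn between 0.81 and 0.89, Ogn between 0.43 and 0.50 and Omd between -0.39 and -0.22. Epyc lay between 0.04 and 0.69 and Bgn between 0.03 and 0.30. The medians of 3 lists near 0 changed sign over the settings, between -0.13 and 0.08 for the linker enzymes, -0.03 and 0.04 for the keratan sulfate enzymes and -0.10 and 0.05 for the endothelial markers. Over all measured genes, 478 lay at least 1.5-fold up and 371 down, and with centring 338 and 487. No paired analysis was possible because each genotype has 1 array. Probe sets near the floor of 94.8 limit Epyc, Omd, Prelp and most of Fmod.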

Other observations

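Proteoglycans outside the leucine-rich family were higher in 8 of the 9 that were measured, where 59.1% of all measured genes were higher. Their median log2 ratio was 0.51, and 4 of the 9 were at least 1.5-fold higher, where 4.19% of all measured genes were. Col18a1, a basement membrane collagen that carries heparan sulfate, gave a signal of 1475.1 in Phc2 L307R and 806.7 in wild type, a log2 ratio of 0.87, and 0.48 at its second probe set. Hspg2, which encodes perlecan, had 3330.6 in Phc2 L307R and 2090.9 in wild type, a log2 ratio of 0.67, and 0.58 at its second probe set. The cartilage genes Col9a1 and Acan were at 0.80 and 0.75 and also stand among the chondrocyte markers. Of the 9, Prg4 and Spock2 exceeded the floor only in Phc2 L307R, at least 0.07 and 0.03 on the log2 scale. They could therefore only be counted as higher. Esm1, an endothelial proteoglycan named after its value was seen, was the 1 lower gene, at -0.54.

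All 5 smooth muscle markers were higher, where 59.1% of all measured genes were. Their median log2 ratio was 0.39, or 0.25 after quantile normalization, with a summed signal of 59739.3 in Phc2 L307R and 45794.7 in wild type. Myh11 was at 0.71, Tagln at 0.42, Acta2 at 0.39 and Des at 0.35, while 2 other probe sets of Acta2 gave 0.10 and 0.14. The 6 skeletal muscle markers had a median of 0.10, with Myod1 at 0.29 and Myh3 at -0.22. Of 6 macrophage markers 4 were measured, at a median of 0.56, with Csf1r at 0.57, Lyz2 at 0.57, Adgre1 at 0.55 and Cd68 at -0.11, while Ptprc and C1qa lay below the floor on both arrays. Of 5 endothelial markers 3 were measured, at a median of 0.05, with Tek at 0.44 or more and Emcn at -1.15, and Pecam1 and Cdh5 lay below the floor. Of 5 epithelial markers 3 were measured, at a median of -0.31, with Krt18 at -0.48, and Epcam and Cdh1 lay below the floor.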
